A study of Mus musculus with 12 samples.

Results

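The genes described here are 9 genes of the Th17 and Il23r program: the cytokines Il17a, Il17f and Il22, the receptors Il23r, Il1r1 and Ccr6, and the transcription factors Rora, Ahr and Stat3. They were taken by symbol from the 45777 genes of the deposited expression table, and their selection drew on the differences between the treatments in these samples. Their own differences are therefore given as values and errors. Counts of how many of the 9 passed the threshold of the fit over all genes are a description, from which nothing is read, and no p-value is given for them. All 9 genes passed the filter on low values (at least 0.5 FPKM in at least 3 samples), which left 15197 genes. Il17a, Il17f, Il23r, Il1r1 and Ccr6 passed it only through the samples with FK506, where they were high. FPKM is a read level corrected for the length of the transcript and the size of the library, and all levels below are in this unit.

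RNA was sequenced from 12 samples of CD4+ T cells isolated from the spleen of wild type C57BL/6 mice, aged 7 weeks by the labels, with 3 samples in each of 4 groups. The methods give an older age for the mice of the study and name Balb/c mice beside C57BL/6. All groups were stimulated through the T cell receptor with anti-CD3 (0.5 µg/ml) for 3 days, and the methods also name soluble anti-CD28. Control cultures, which the labels also call Th0, received no drug, and the others received metformin (Metformin), FK506 (FK506) or both drugs (Metformin+FK506). FK506 is tacrolimus, a calcineurin inhibitor that blocks NFAT activation, and metformin is an antidiabetic drug that activates AMPK. The doses of both drugs in these cultures and the number of mice behind the 3 samples of a group are not given in the sources used here, and no cytokine is named among the additions to the medium. P-values therefore measure only the spread between these samples, which may be technical.

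Th17 cells are helper T cells that secrete IL-17A, IL-17F and often IL-22, cytokines that act on epithelium and stroma and recruit neutrophils. IL-6 and related cytokines signal through STAT3, which works with ROR-family factors such as RORα (encoded by Rora) to switch on Il17a, Il17f and Il23r. The IL-23 receptor then lets the cells respond to IL-23, IL-1 acts through IL-1R1 to support the same cells, CCR6 guides them towards its ligand CCL20, and the ligand-activated factor AHR is needed for full Il22 transcription. Several of these genes are also used by γδ T cells and innate lymphoid cells, and Ccr6 by B cells as well.

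The cell type label was checked against marker genes before the values were compared. Between 43402632 and 64290105 counts were assigned to genes per sample. All 16 T cell markers (among them Cd4, Cd3e and Trac) were listed above 0.5 FPKM in every group, and their summed mean was 4289 FPKM in Control, 4550 in Metformin, 4390 in FK506 and 4605 in Metformin+FK506. Markers of other cells differed between the groups by far more. The 10 B cell markers summed to 62.9 to 66.9 FPKM in the Control samples, 87.2 to 102 with metformin, 886 to 926 with FK506 and 427 to 458 with the combination. The 10 myeloid markers summed to 6.77 to 6.94, 9.61 to 10.9, 1346 to 1398 and 894 to 1010 FPKM in the same order, and all 10 stood above 0.5 FPKM in both FK506 groups against 2 in the groups without FK506. C1qa was at 0 in both groups without FK506. The 5 γδ T cell markers summed to 2.03 to 2.93, 2.63 to 3.00, 17.1 to 20.2 and 21.2 to 23.4 FPKM, and the 5 markers of NK and innate lymphoid cells to 1.30 to 1.74, 5.06 to 5.69, 38.2 to 40.2 and 29.8 to 30.5 FPKM. Neutrophil markers were at 0 without FK506 and had a summed mean of 36.1 FPKM with FK506 and 19.2 with the combination, and stromal and endothelial markers had means of 9.91, 10.5, 45.4 and 50.2. CD8 T cell markers had means of 9.18, 13.1, 7.05 and 7.996 FPKM, and basophil and mast cell markers were at most 5.13 FPKM in any sample. In bulk RNA, fewer cells of a type and less RNA per cell cannot be told apart.

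**Figure D1:**
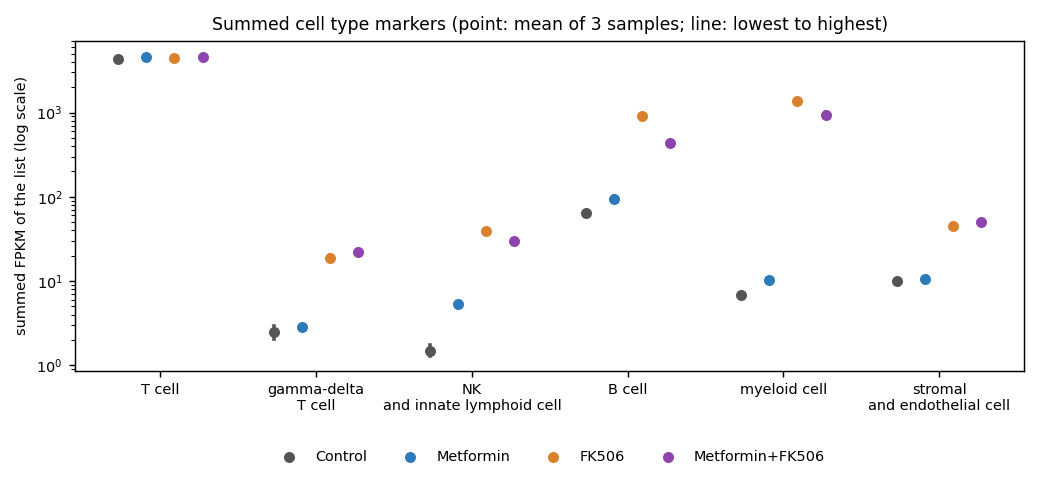
Summed FPKM of marker lists for 6 cell types in the 4 treatment groups, on a log axis. Points are means of 3 samples and lines run from the lowest to the highest sample. The T cell sum stays between 4228 and 4729 FPKM in all samples, whereas the B cell, myeloid, γδ T cell and innate lymphoid sums are higher in both groups that received FK506.

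The starts of the genes were examined for short letter runs that Th17 transcription factors are known to read. RefSeq promoters (GRCm38.p6, the mm10 build of the deposited data; 300 bases each, from 250 before the start to 50 after it) were found for 8 of the 9 genes, 10 promoters in all. The ROR half-site AGGTCA, searched on both strands, occurred in 4 of the 10 promoters, those of Il17a, Il17f and Il23r and the first of a pair for Ccr6, and in 16.3% of all 32851 promoters of that length. These 4 are shown because they hold the half-site. The windows of Il22, Rora and Stat3, both of Il1r1 and the second of Ccr6 held none. Capitals mark AGGTCA, its reverse complement TGACCT, or the STAT motif TTCNNNGAA, and each sequence runs 5′ to 3′ on the strand of its gene.
Il17a, chr1:20730655-20730954, plus strand: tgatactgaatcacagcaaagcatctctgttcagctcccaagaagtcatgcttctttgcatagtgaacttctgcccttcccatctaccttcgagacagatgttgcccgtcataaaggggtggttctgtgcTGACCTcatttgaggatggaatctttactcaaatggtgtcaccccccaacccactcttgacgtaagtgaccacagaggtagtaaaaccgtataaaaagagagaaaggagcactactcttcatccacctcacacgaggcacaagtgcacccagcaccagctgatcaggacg
Il17f, chr1:20784221-20784520, minus strand: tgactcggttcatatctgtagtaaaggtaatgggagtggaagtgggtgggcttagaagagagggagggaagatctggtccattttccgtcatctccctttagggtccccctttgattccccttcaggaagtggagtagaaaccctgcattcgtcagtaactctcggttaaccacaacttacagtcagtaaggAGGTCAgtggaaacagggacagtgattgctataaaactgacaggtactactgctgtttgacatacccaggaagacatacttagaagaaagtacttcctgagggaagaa
Il23r, chr6:67491806-67492105, minus strand: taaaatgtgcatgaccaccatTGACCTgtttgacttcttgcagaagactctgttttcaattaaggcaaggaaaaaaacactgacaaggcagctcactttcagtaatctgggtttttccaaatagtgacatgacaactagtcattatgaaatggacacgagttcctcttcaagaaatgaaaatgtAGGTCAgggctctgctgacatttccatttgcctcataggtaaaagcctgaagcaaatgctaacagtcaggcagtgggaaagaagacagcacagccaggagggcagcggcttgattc
Ccr6, chr17:8235793-8236092, plus strand: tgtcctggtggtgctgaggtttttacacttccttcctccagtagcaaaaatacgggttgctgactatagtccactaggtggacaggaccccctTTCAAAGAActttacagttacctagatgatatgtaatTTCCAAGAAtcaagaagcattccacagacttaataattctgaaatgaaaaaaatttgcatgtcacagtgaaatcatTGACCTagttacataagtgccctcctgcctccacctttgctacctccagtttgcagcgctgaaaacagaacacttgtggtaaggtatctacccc

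The Il23r window held AGGTCA once on each strand, and the first Ccr6 window held both a half-site and 2 copies of TTCNNNGAA. That STAT motif occurred in 1 of the 10 promoters and in 8.30% of all promoters. The core of the AHR site, GCGTG, occurred in 4 of the 10, both windows of Il1r1 and those of Rora and Stat3, and in 32.4% of all promoters. The NFAT core GGAAA, which the pathway blocked by FK506 acts on, occurred in 7 of the 10 and in 61.3% of all promoters, and the AP-1 motif TGANTCA in the Il17a window alone and in 7.81% of all. A letter match describes the sequence and is not a measured binding site. Il17a and Il17f are neighbours on chromosome 1, 42649 bases apart with no protein-coding gene between them, and Il23r lies 46638 bases from Il12rb2 on chromosome 6, also with none between.

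The cytokine genes had low levels throughout, and they did not follow 1 pattern. Il17a (NCBI gene 16171, chr1:20730905-20734496 in GRCm38.p6) encodes IL-17A, the signature cytokine of Th17 cells. It measured 0.238, 0.168 and 0.300 FPKM in Control, 0.483, 0.416 and 0.224 with metformin, 0.691, 0.494 and 1.13 with FK506, and 0.988, 1.29 and 0.517 with the combination. The 3 FK506 samples and the 3 combination samples all lay above every sample without FK506, and within each of those pairs of groups the samples overlapped. The fitted log2 difference from Control was 1.47 (SE 0.43) with FK506 and 1.80 (SE 0.43) with the combination. Between the combination and FK506 it was 0.33 (SE 0.38) and moved between -0.0013, without combination replicate 2, and 0.69, without FK506 replicate 3. These values rest on 49, 77, 160 and 203 counts summed over the 3 samples of each group, in the order given.

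Il17f (gene 257630, chr1:20777146-20785274) encodes IL-17F, which pairs with IL-17A or with itself. It measured 0, 0.0171 and 0 FPKM in Control and 0.0570, 0.0268 and 0.0271 with metformin. With FK506 it measured 1.12, 1.25 and 1.00 FPKM, and with the combination 1.28, 1.02 and 2.61. Il17f was thus nearly absent from both groups without FK506, where Il17a was listed in every sample. Control held 3 counts in all, Metformin 14, FK506 253 and Metformin+FK506 316. The ratio of counts to Control, scaled to library size times the TMM factor of the fit, was 69.8 with FK506 (95% exact interval 23.6 to 341). It was 92.8 with the combination (31.5 to 453), and 4.60 with metformin alone (1.28 to 24.9), all 3 Control counts being in replicate 2. The intervals cover counting error only and take the deposited whole numbers as read counts. The combination and FK506 overlapped, with a log2 difference of 0.49 (SE 0.36) that was -0.0067 without combination replicate 3.

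Il22 (gene 50929, chr10:118204584-118210047) encodes IL-22, which acts on epithelial cells. It was the 1 cytokine of the 3 that was highest in Control. It measured 2.74, 2.1 and 2.21 FPKM in Control and 0.246, 0.137 and 0.105 with metformin. It measured 0.735, 0.371 and 0.623 with FK506 and 0.583, 0.375 and 0.364 with the combination. Every treated sample lay below every Control sample, and the metformin samples were the lowest of all. Relative to Control the log2 difference was -3.86 (SE 0.38) with metformin, -2.33 (SE 0.33) with FK506 and -2.61 (SE 0.34) with the combination. A near-identical copy of the gene (Il22b, listed as Iltifb) shares 41.0% of the 50-base stretches of the Il22 transcript, so reads could be split between them. The copy held 7, 7 and 3 counts in the Control samples, none with metformin, 0, 0 and 7 with FK506, and 0, 1 and 0 with the combination, against 433 for Il22 in Control. Il17a and Il17f share no such stretch.

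**Figure D2:**
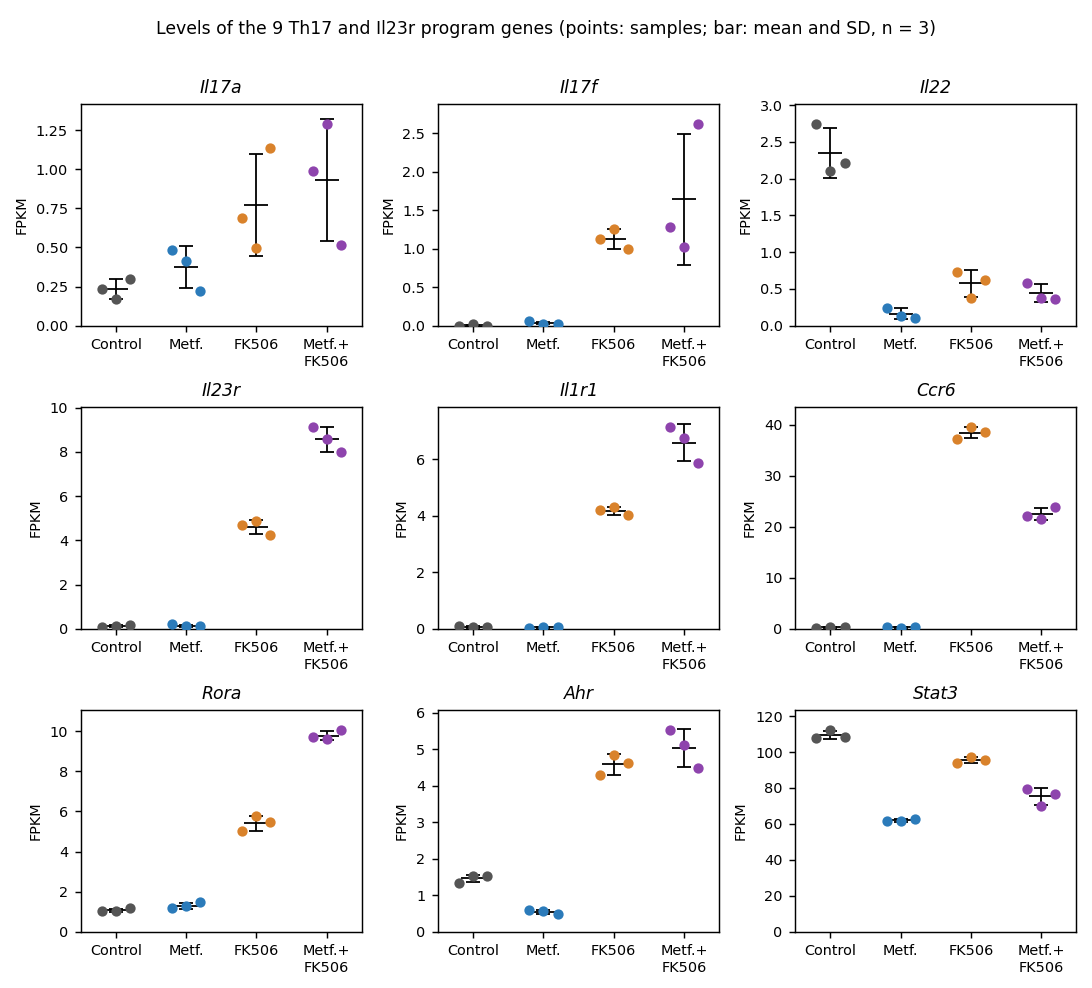
FPKM of each of the 9 genes in all 12 samples, 3 per group (points), with the group mean and SD (bars). Each panel has its own linear axis from 0. Il23r, Il1r1, Ccr6, Rora and Ahr are higher in every sample with FK506 than in any without it, Il22 is highest in Control, and Stat3 is highest in Control and lowest with metformin alone.

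The 3 receptor genes were close to 0 without FK506 and clearly present with it. Il23r (gene 209590, chr6:67422932-67491855) encodes the chain that, with the Il12rb1 product, forms the IL-23 receptor. It measured 0.0750, 0.116 and 0.164 FPKM in Control and 0.193, 0.103 and 0.115 with metformin. It measured 4.68, 4.88 and 4.25 with FK506 and 9.12, 8.58 and 8.002 with the combination. The combination samples lay above all FK506 samples, which lay above all others. The log2 difference from Control was 4.997 (SE 0.19) with FK506 and 5.92 (SE 0.19) with the combination, and the combination differed from FK506 by 0.92 (SE 0.13), a fold of 1.89. Metformin alone differed from Control by 0.14 (SE 0.29), with overlapping samples, and the value ran from -0.17 without Metformin replicate 1 to 0.45 without Control replicate 3.

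Il1r1 (gene 16177, chr1:40222480-40316201) encodes the signalling receptor for IL-1, which supports IL-17 production. Its levels were 0.0998, 0.0503 and 0.0507 FPKM in Control and 0.0291, 0.0629 and 0.0452 with metformin. They were 4.18, 4.30 and 4.02 with FK506 and 7.13, 6.75 and 5.88 with the combination. As for Il23r, every combination sample lay above every FK506 sample, and both groups above all others. The log2 difference from Control was 5.58 (SE 0.16) with FK506 and 6.28 (SE 0.16) with the combination, and that between the combination and FK506 was 0.70 (SE 0.11), a fold of 1.62. Metformin alone differed from Control by -0.51 (SE 0.29), with overlapping samples, and by -0.16 without Control replicate 1.

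Ccr6 (gene 12458, chr17:8236041-8258519) encodes the receptor for CCL20. Its levels were 0.228, 0.237 and 0.322 FPKM in Control and 0.255, 0.202 and 0.324 with metformin. They were 37.3, 39.5 and 38.6 with FK506 and 22.1, 21.6 and 23.9 with the combination. Unlike the other receptors, Ccr6 was higher in every FK506 sample than in any combination sample. The log2 difference from Control was 7.01 (SE 0.10) with FK506 and 6.26 (SE 0.10) with the combination. Metformin alone differed from Control by -0.28 (SE 0.18) and overlapped it, with -0.089 without Metformin replicate 1 and -0.50 without Metformin replicate 3. This value came from the counts and ran from -0.29 to -0.0029 over the settings of the fit. The mean FPKM was 0.260 with metformin and 0.263 in Control. The combination differed from FK506 by -0.75 (SE 0.06), where the summed B cell markers had a ratio of means of 0.484 and Ccr6 one of 0.585.

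The 3 transcription factors behaved differently from each other. Rora (gene 19883, chr9:68653404-69388246) encodes RORα, a nuclear receptor that takes part in Th17 differentiation. It measured 1.03, 1.01 and 1.16 FPKM in Control, 1.16, 1.28 and 1.46 with metformin, 5.02, 5.77 and 5.45 with FK506, and 9.69, 9.62 and 10.1 with the combination. The combination stood above FK506 in every sample, by 0.88 on the log2 scale (SE 0.07, a fold of 1.84). FK506 differed from Control by 2.12 (SE 0.08) and the combination by 3.00 (SE 0.08). Metformin alone differed by 0.25 (SE 0.08), with overlapping samples, and by 0.16 without Metformin replicate 3.

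Ahr (gene 11622, chr12:35497979-35534989) encodes a receptor for small aromatic ligands that enters the nucleus with the Arnt product. It measured 1.35, 1.51 and 1.52 FPKM in Control and 0.595, 0.559 and 0.490 with metformin. It measured 4.29, 4.84 and 4.63 with FK506 and 5.52, 5.11 and 4.49 with the combination. Every metformin sample lay below Control and every FK506 sample above it. The log2 difference was -1.45 (SE 0.11) with metformin, 1.43 (SE 0.10) with FK506 and 1.59 (SE 0.10) with the combination. With FK506 present, the difference made by metformin was 0.16 (SE 0.09), or 0.09 without combination replicate 1, and the samples overlapped, where without FK506 the groups were apart.

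Stat3 (gene 20848, chr11:100886806-100939594) encodes the factor activated by IL-6, IL-21 and IL-23. It was the most abundant of the 9 genes in every group. It measured 108, 112 and 109 FPKM in Control, 61.6, 61.4 and 62.6 with metformin, 93.8, 97.4 and 95.4 with FK506, and 79.2, 70.2 and 76.4 with the combination. No 2 groups overlapped, and Control was followed by FK506, the combination and metformin. The log2 difference from Control was -0.86 (SE 0.04) with metformin, -0.41 (SE 0.04) with FK506 and -0.73 (SE 0.04) with the combination. Set against the summed counts of the T cell markers in place of all genes, the FK506 value was -0.06.

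Counted together, 4 of the 9 genes passed the threshold of edgeR's quasi-likelihood test (Benjamini-Hochberg adjusted p under 0.05) between Metformin and Control, 1 higher (Rora) and 3 lower (Il22, Ahr and Stat3). Of all genes tested, 56.0% passed in that comparison. Between FK506 and Control all 9 passed, 7 higher and 2 lower (Il22 and Stat3), where 80.9% of all genes passed, and between Metformin+FK506 and Control again 7 higher and 2 lower, where 81.7% passed, 42.1% higher and 39.6% lower. The samples of the groups did not overlap for 4, 9 and 9 of the 9 genes in these 3 comparisons, beside 65.0%, 84.4% and 82.0% of all genes. All 3 comparisons share the Control samples. Il17a, Il17f, Il23r, Il1r1 and Ccr6 passed the filter on low values only through the groups with FK506. That they were higher in those groups than in Control was thus all but fixed by the filter.

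Between Metformin+FK506 and FK506, the values of the 9 genes ran in both directions. The samples did not overlap for 5 of them, Il23r, Il1r1 and Rora being higher and Ccr6 and Stat3 lower in every combination sample, while 38.6% of all genes had no overlap. The same 5 are the ones past the threshold of the fit over all genes, which 30.7% of all genes passed. The median log2 difference of the 9 was 0.33, beside 0.002 for all genes tested, and is the Il17a value, which leaving out 1 sample moved between -0.0013 and 0.69. Between Metformin+FK506 and Metformin, 9 of the 9 were higher, from 0.12 (SE 0.04) for Stat3 to 6.79 (SE 0.17) for Il1r1, where 78.2% of all genes passed, 40.3% higher and 37.9% lower. No sample overlapped between these groups for any of the 9 genes, as for 78.2% of all genes. The same limit of the filter holds here for Il17a, Il17f, Il23r, Il1r1 and Ccr6. The other receptors and factors differed by 5.78 (SE 0.19) for Il23r, 6.54 (SE 0.10) for Ccr6, 3.04 (SE 0.11) for Ahr and 2.75 (SE 0.08) for Rora. For Il17f the ratio of scaled counts was 20.2 (95% exact interval 11.9 to 37.4). The Il17a and Il22 values there were 1.17 (SE 0.40) and 1.25 (SE 0.42). With 1 sample left out at a time, the Il17a value ran from 0.85 to 1.45 and the Il22 value from 0.95 to 1.69.

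**Figure D3:**
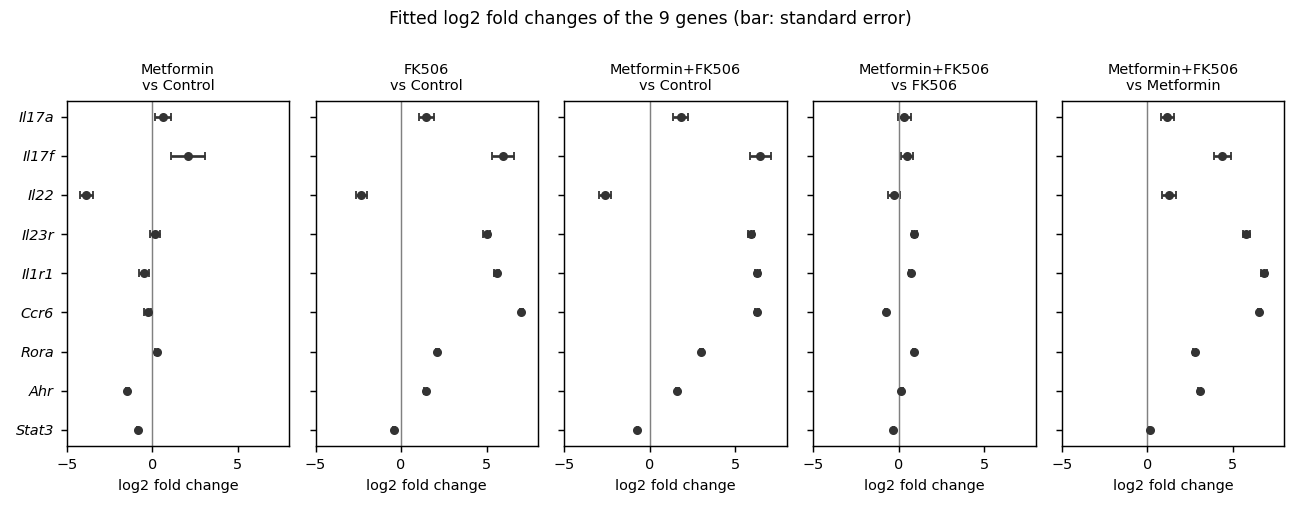
Fitted log2 fold change of each gene in the 5 comparisons between groups, with its standard error (bars). The Il17f values against Control and Metformin rest on 3 and 14 counts and depend on the prior count of the fit. Between Metformin+FK506 and FK506 the values run from -0.75 for Ccr6 to 0.92 for Il23r.

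The interaction compares the effect of metformin in the presence of FK506 with its effect alone, as a difference of log2 values. It was 3.58 (SE 0.53) for Il22, 1.61 (SE 0.14) for Ahr, 1.21 (SE 0.31) for Il1r1, 0.63 (SE 0.11) for Rora and 0.54 (SE 0.05) for Stat3, and these are the 5 past the threshold of the fit. Of all genes, 46.5% passed for this term, 22.5% with a positive and 24.0% with a negative value, and nothing is read from the count for genes chosen on these samples. The remaining values were 0.78 (SE 0.32) for Il23r, -0.30 (SE 0.59) for Il17a, -0.48 (SE 0.20) for Ccr6 and -1.59 (SE 1.05) for Il17f. The Il17f value depends on the prior count of the fit, and was -4.88 without Control replicate 2 and -1.02 without Control replicate 3. The Il17a value ran from -0.63 without combination replicate 2 to 0.063 without FK506 replicate 3. The Il23r value ran from 0.47 without Control replicate 3 to 1.08 without Metformin replicate 1. The Ccr6 value ran from -0.66 without Metformin replicate 1 to -0.26 without Metformin replicate 3. Both were past the threshold with DESeq2 and in limma on FPKM. Ccr6 was also past it when scaled to library size or T cell markers and with a filter at a mean of 1 FPKM.

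The order of levels over the 4 groups took few forms. Il23r, Rora, Il17a and Il17f ran Metformin+FK506, FK506, Metformin, Control, and Il1r1 and Ahr ran Metformin+FK506, FK506, Control, Metformin. Ccr6 alone had FK506 on top, and Il22 and Stat3 shared the order Control, FK506, Metformin+FK506, Metformin. Of the 27 pairs of neighbouring groups in these orders, the samples were apart in 18 and overlapped in 9. Metformin+FK506 and FK506, neighbours for all 9 genes, overlapped for Il17a, Il17f, Il22 and Ahr.

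Levels per transcript length can also be ordered among the genes within a group. In Control, Stat3 stood at 109.5 ± 2.23 FPKM (SD, n = 3), followed by Il22 at 2.35 ± 0.341, Ahr at 1.46 ± 0.0992 and Rora at 1.07 ± 0.0814. The receptors Ccr6, Il23r and Il1r1 were at 0.263 ± 0.0519, 0.118 ± 0.0444 and 0.0669 ± 0.0285, with Il17a at 0.235 ± 0.0662. The Control order was thus led by Stat3 and by Il22, with the receptors near the bottom. In FK506, Stat3 (95.5 ± 1.81) was followed by Ccr6 (38.5 ± 1.13), Rora (5.41 ± 0.379), Il23r (4.60 ± 0.319), Ahr (4.59 ± 0.280) and Il1r1 (4.17 ± 0.142). The cytokines then came last, Il17f at 1.12 ± 0.125, Il17a at 0.772 ± 0.327 and Il22 at 0.576 ± 0.186 FPKM. In Metformin+FK506, Rora (9.79 ± 0.229) and Il23r (8.57 ± 0.557) followed Stat3 (75.3 ± 4.62) and Ccr6 (22.5 ± 1.20), and the cytokines again came last, none above a mean of 1.64 FPKM. Receptor transcripts therefore exceeded those of all 3 cytokines in both FK506 groups, and Il22 exceeded every receptor in Control alone.

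The most similar gene profiles were ranked for the 6 members with a mean of at least 1 FPKM, by the root mean square difference of log2 group means over the 4 groups among 10959 protein-coding genes. For Il23r they were Tmem51 (0.085) and Bmp2 (0.092), and for Rora Loxl3 (0.062) and Gpr162 (0.10). For Il1r1 they were P2ry6 (0.18) and AU021092 (0.22). For Ccr6 they were S100a8 (0.15), a neutrophil gene on the marker list, and Cd180 (0.17), which B cells express. For Ahr they were Rxra (0.078) and Rasd1 (0.13), and for Stat3 Trim12c (0.032) and Ebi3 (0.046). With 4 groups, a close match is a description of levels only.

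The rest of the pathway was examined next, 53 further genes in 9 roles of which 49 passed the filter. Among them, the genes that AHR is known to induce were tested, a list also written with earlier results of these data known. All 4 rose with FK506 against Control: Cyp1a1, a cytochrome P450 and the classical AHR target, Cyp1b1, the AHR repressor gene Ahrr, and Tiparp. In that comparison 41.3% of all genes tested rose. Cyp1a1, Cyp1b1 and Ahrr passed the filter on low values only through the groups with FK506. None of them was above 0.201 FPKM in any sample without it. Their rise was thus all but fixed by the filter, and the count and their p-values against Control are a description. Cyp1a1 went from 0.0411, 0.0491 and 0.169 FPKM in Control to 8.57, 8.36 and 8.14 with FK506, a log2 change of 6.29 (SE 0.24, adjusted p = 3.07e-13 by edgeR), and measured 16.1, 16.5 and 22.1 with the combination. It was the 1 of the 4 that also rose from FK506 to the combination, by 1.15 (SE 0.14, adjusted p = 1.06e-05), where 15.6% of all genes rose. Ahrr rose by 4.35 (SE 0.18) and Cyp1b1 by 6.95 (SE 0.48) with FK506, the latter from 11 counts in all of Control. Tiparp rose by 0.27 (SE 0.07) with FK506 and fell by 1.30 (SE 0.07, adjusted p = 2.46e-10) with metformin alone, while Ahrr had a value of 0.54 (SE 0.22, adjusted p = 0.0449), past the threshold in the opposite direction, and Cyp1a1 one of 0.02 (SE 0.46, adjusted p = 0.992). The Ahrr value was not past the threshold with the replicate block, nor in 8 of the 12 fits that left out 1 sample. Arnt, the partner of AHR, had a value of -0.11 (adjusted p = 0.013) with FK506 that turned to 0.12 without a scaling factor.

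The 3 genes taken as STAT3 targets, Socs3, Bcl3 and Pim1, fell with metformin and fell with FK506, as did 27.4% and 39.6% of all genes tested. Socs3, the feedback inhibitor of STAT3 signalling, measured 46.6, 48.8 and 47.7 FPKM in Control, 11.3, 10.8 and 10.7 with metformin, 9.03, 9.07 and 8.47 with FK506, and 7.35, 7.16 and 9.19 with the combination. Its log2 change was -2.15 (SE 0.05, adjusted p = 1.77e-14 by edgeR) with metformin and -2.53 (SE 0.06, adjusted p = 2.86e-16) with FK506. From FK506 to the combination, where Stat3 itself differed by -0.32 (SE 0.04), Bcl3 fell by 0.58 (SE 0.06, adjusted p = 9.23e-07), Pim1 fell by 0.25 (SE 0.05, adjusted p = 0.000474) and Socs3 had a value of -0.14 (SE 0.06, adjusted p = 0.0678). The Socs3 value was past the threshold at -0.23 against the T cell markers and at -0.155 with DESeq2. It was also past it without FK506 replicate 2 or combination replicate 3.

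The other cytokines of the pathway were lower with FK506, where Il17a and Il17f were higher. All 5 tested (Il21, Csf2, Il10, Tgfb3 and Ccl20) fell against Control, as did 39.6% of all genes. Il21 passed the filter on low values only through the groups without FK506, so its fall was all but fixed by the filter. Il21, which acts back on Th17 cells through STAT3, went from 13.2, 13.2 and 13.5 FPKM in Control to 1.67, 1.58 and 1.98 with metformin and 0.179, 0.204 and 0.144 with FK506, a log2 change of -6.39 (SE 0.13, adjusted p = 1.44e-16 by edgeR) for FK506. Csf2, which encodes GM-CSF, fell by 4.84 (SE 0.21, adjusted p = 2.09e-12). Ccl20, the ligand of CCR6, rose from FK506 to the combination by 2.62 (SE 0.61, adjusted p = 0.0036), from 11 to 63 counts in all. The other IL-17 family ligands Il17b, Il17c, Il17d and Il25 were under the filter on low values.

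Of the 8 other receptor chains tested, 5 rose and 3 fell with FK506 against Control, beside 41.3% and 39.6% of all genes. The partner chains of Il23r and Il1r1 were among those that fell, the latter by an amount that depends on the scaling. Il12rb1, the second chain of the IL-23 receptor, measured 119, 111 and 116 FPKM in Control, 62.6, 49.7 and 58.5 with metformin, 11.6, 11.3 and 10.8 with FK506, and 15.7, 16.1 and 16.0 with the combination. It fell by 3.37 (SE 0.05, adjusted p = 1.3e-18 by edgeR) with FK506, where Il23r was higher, and rose by 0.40 (SE 0.04, adjusted p = 4e-06) from FK506 to the combination. Il12rb2, the neighbour of Il23r on chromosome 6 and a chain of the IL-12 receptor, fell from a mean of 68.3 to 3.98 FPKM with FK506 (log2 change -4.21, SE 0.04, adjusted p = 9.76e-20). Il1rap, the partner of Il1r1, fell by 0.35 (SE 0.09, adjusted p = 0.00225). Against the T cell markers, the median of all genes in this comparison moved from 0.024 to 0.38, about as far as the Il1rap value, so that fall depends on the scaling.

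Of the 8 genes that restrain the program, 3 rose and 5 fell with FK506 against Control (Gfi1, Tbx21, Il2, Stat5a and Stat5b), beside 41.3% and 39.6% of all genes. Foxp3, the factor of regulatory T cells, rose from a mean of 3.48 to 26.7 FPKM with FK506 (log2 change 2.72, SE 0.08, adjusted p = 5.04e-15 by edgeR) and to 32.3 with the combination (0.29 against FK506, SE 0.07, adjusted p = 0.00281), and fell by 0.52 with metformin alone (adjusted p = 6.72e-05). Gfi1, a repressor of transcription, fell by 3.02 (SE 0.08, adjusted p = 1.91e-15) with FK506 and had a value of -2.82 between Metformin+FK506 and Metformin (adjusted p = 6.46e-15). Cxcr6, a homing receptor, rose from a mean of 0.769 FPKM in Control to 31.3 with FK506 and 55.8 with the combination, by 0.86 between the last pair (SE 0.05, adjusted p = 8.6e-09).

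Over the whole list, 12 of the 49 genes tested rose and 26 fell with metformin against Control, beside 28.6% and 27.4% of all genes. With FK506 against Control 23 rose and 25 fell, beside 41.3% and 39.6%. Among them, Cyp1a1, Cyp1b1, Ahrr and Il21 passed the filter only through the groups where they were high. From FK506 to the combination 20 rose, 6 fell and 23 did not pass, beside 15.6% and 15.0% of all genes, and when counts were set against the T cell markers 13 rose and 11 fell, beside 9.07% and 26.3%. From metformin to the combination 25 rose and 19 fell, beside 40.3% and 37.9%. The interaction was positive for 26 and negative for 11, beside 22.5% and 24.0%. The median log2 change of the list was -0.21, -0.11 and 0.13 in the first 3 of these comparisons.

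**Figure D4:**
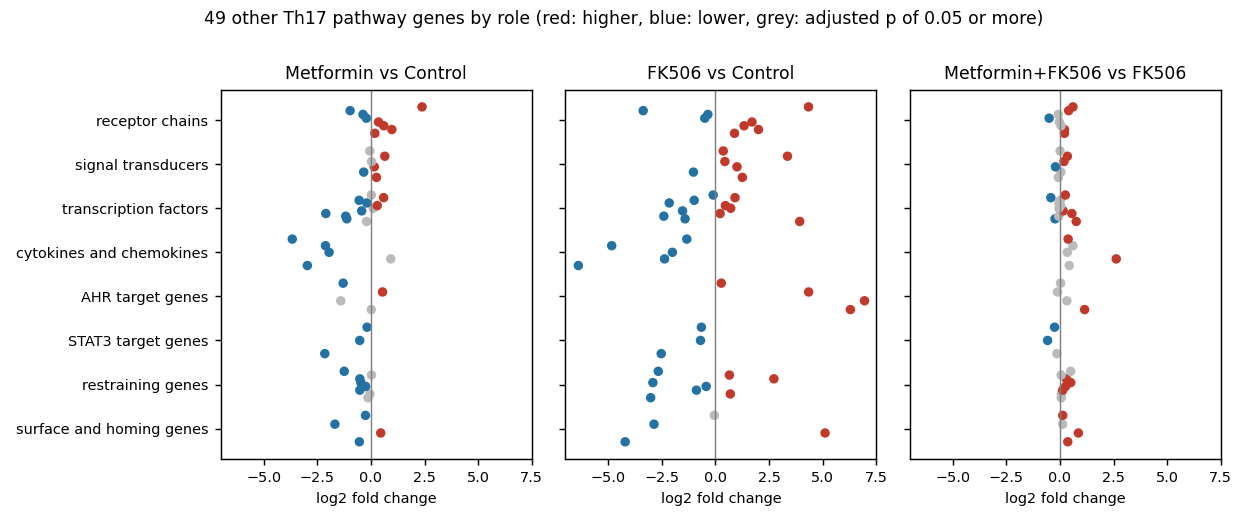
Log2 fold change of the 49 other pathway genes tested, grouped by role, in 3 comparisons. Each point is a gene, red or blue where it was past an adjusted p of 0.05 in edgeR's quasi-likelihood test and grey otherwise. The 4 AHR target genes lie to the right and the 5 cytokines to the left in the FK506 panel. Cyp1a1, Cyp1b1 and Ahrr passed the filter on low values only through the groups with FK506, and Il21 only through those without it.

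Since marker genes of other cells were higher in the FK506 groups, their levels were set beside those of the 9 genes. From FK506 to the combination, the mean of all 10 B cell markers was lower, with ratios from 0.335 to 0.633. Ccr6, with a ratio of 0.585, lay within that range. The 10 myeloid markers were split, 6 having a higher and 4 a lower mean, with a median ratio of 1.03. Their sum was led by Lyz2, which measured 972, 978 and 993 FPKM with FK506 and 483, 525 and 610 with the combination, whereas C1qb, Csf1r, Cd68 and Adgre1 were higher in every combination sample. Of the 5 NK and innate lymphoid markers, Kit (ratio 0.667) and Eomes (0.887) were lower in every combination sample and Klrb1c (2.02) was higher in every one. Ncr1, at means of 0.0899 and 0.197 FPKM, and Zbtb16 (ratio 1.07) had a higher mean with overlapping samples. Ncr1 and Klrb1c were under the filter on low values.

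The γδ T cell markers did not all differ the same way between the FK506 groups. Trdc, the constant segment of the δ chain, measured 1.45, 1.79 and 1.23 FPKM in Control, 4.77, 6.21 and 6.08 with FK506, and 4.20, 5.73 and 5.92 with the combination, so that the FK506 groups overlapped. Tcrg-C1 measured 7.72, 7.48 and 9.14 with FK506 and 13.7, 9.91 and 10.5 with the combination, and Sox13, a factor of IL-17-producing γδ T cells, 0.266, 0.303 and 0.261 against 0.857, 0.485 and 0.839, both higher in every combination sample. The ratio of the combination mean to the FK506 mean was 1.86 for Il23r, 1.81 for Rora, 1.58 for Il1r1, 1.46 for Il17f and 1.20 for Il17a. Single markers had ratios up to 2.63 in the γδ list (Sox13), 2.02 in the NK and innate lymphoid list among those whose samples were apart (Klrb1c), 2.72 in the stromal and endothelial list (Cdh5) and 1.54 in the T cell list (Thy1). Sox13 and Klrb1c were under the filter on low values. Among the markers that passed it, the highest ratio was 1.40 in the γδ list (Tcrg-C1) and 1.07 in the NK and innate lymphoid list (Zbtb16). The part of these other cells in the levels of the 9 genes was not tested.

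**Figure D5:**
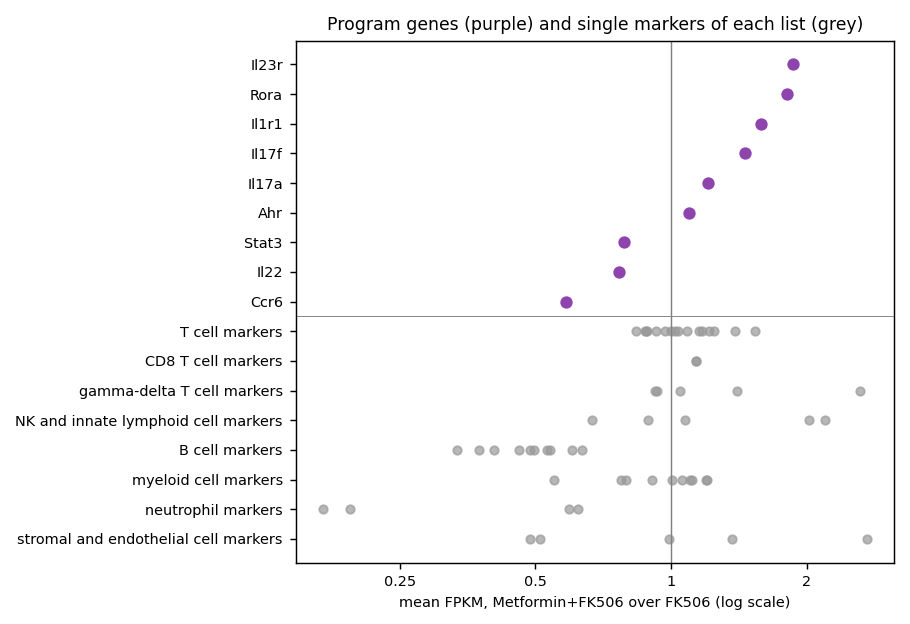
Ratio of mean FPKM in Metformin+FK506 to that in FK506 (log axis) for each of the 9 genes (purple, named) and for each marker of 8 cell type lists (grey points, 1 per marker; markers at 0 with the combination, Elane and the basophil and mast cell list, are left out). All B cell markers lie left of 1, and the myeloid, γδ and NK and innate lymphoid markers lie on both sides, some γδ, innate lymphoid and endothelial markers further right than Il23r at 1.86. The γδ and innate lymphoid markers further right (Sox13, Ncr1 and Klrb1c) were under the filter on low values.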

How the data were processed

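PolyA libraries of CD4+ T cells from mouse spleen were sequenced for 12 samples, assigned by their labels to 4 treatment groups of 3. For each of 45777 genes, the authors deposited read counts (unscaled whole numbers) and FPKM values; the table holds 12 further value columns that were left aside. The submitters' processing notes name bcl2fastq 2.20.0, Trimmomatic, HISAT2 2.1.0, StringTie 2.1.3b and the build mm10, and neither how reads shared between similar genes were counted nor whether the counts are estimates rounded to whole numbers is given in the sources used here. Levels, means and SDs are of FPKM. Differences were computed from the counts with edgeR 4.0.16 (TMM scaling, glmQLFit and glmQLFTest, all 12 samples in 1 fit) in R 4.3.3 for the 15197 genes with at least 0.5 FPKM in at least 3 samples, with Benjamini-Hochberg adjustment over all of them. Intervals of count ratios are exact, take these numbers as read counts and cover counting error only. Totals ran from 43402632 to 64290105 counts per sample, so that a single count is a very small level and the precision of Il17a, Il17f and Il22 is limited by counts. The scripts were tested on simulated data. The 9 genes, the pathway and marker lists, and the rule for named genes (the 9, Il21, Il12rb1, Il12rb2, Foxp3, Socs3, Arnt, the AHR targets, the 3 largest rises and falls per comparison, and the 2 nearest profiles) were chosen with earlier results of these data known. Lyz2, C1qb, Csf1r, Cd68, Adgre1, Kit, Eomes, Ncr1, Klrb1c, Zbtb16, Trdc, Tcrg-C1, Sox13, Cdh5, Thy1, Il1rap, Tbx21, Il2, Stat5a and Stat5b were named after their values were seen. Some results are not reported here. Promoters and positions are from RefSeq on GRCm38.p6. Alternatives were other scalings (DESeq2's size factors, library size, T cell markers), filters, DESeq2 1.42.0, limma 3.58.1 on log2(FPKM + 1) and log2(FPKM + 0.1), fits of the groups compared only, a replicate block, and leaving out each sample.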

Additional observations from a re-analysis of the deposited data

Results flagged for a closer look

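For several pathway genes the effect of FK506 differed with metformin present, by the interaction term of edgeR's quasi-likelihood fit (log2 scale, 3 samples a group, Benjamini-Hochberg adjusted p over all genes). The positive values were 4.05 for Il10 (adjusted p = 8.26e-11), 3.40 for Il21 (1.67e-09), 2.72 for Csf2 (1.4e-06), 2.01 for Socs3 (7.03e-12), 1.38 for Il12rb1 (2.77e-11), 1.32 for Tiparp (1.48e-08), 0.90 for Il12rb2 (1.51e-09), 0.81 for Foxp3 (1.15e-05) and 0.23 for Arnt (0.00129). The negative values were -1.78 for Il18r1 (3.74e-09), -1.02 for Ikzf3 (3.78e-08), -0.76 for Il6st (4.89e-07) and -0.66 for Ahrr (0.0456). The Ahrr value was no longer past the threshold in most fits that left out 1 sample, and the Arnt value was 0.068 and not past it when counts were set against the T cell markers.

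Among the 9 genes, the FPKM of Il22 and Stat3 differed with FK506 in opposite directions with and without metformin in every sample. Without metformin all FK506 samples lay below Control, and with metformin all combination samples lay above those with metformin alone. The differences on the log2 scale were 3.58 for Il22 and 0.54 for Stat3. For Il22 the levels rest on 30 counts in all with metformin and 80 with the combination. The Il22 value between the combination and Metformin was 1.25. It was 1.03 without Metformin replicate 3 and 0.95 without combination replicate 1, and was past the threshold in neither fit. The Stat3 difference depends on the scaling: FK506 against Control, -0.41, was -0.056 when counts were set against the T cell markers. The combination against Metformin, 0.12, ran from 0.084 to 0.31 over the settings, and was not past the threshold at 0.084, with no filter. As both genes were chosen with these values known, they are a description, and no test of the difference is drawn from them.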

How the results depend on the processing

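Each total of pathway genes or of the 9 genes past the threshold, both directions together, stayed within 1.5 times its value under every other setting but the added threshold below, and no log2 difference of the 9 genes past the threshold turned its sign. Leaving out 1 sample at a time gave 37 to 39, 46 to 48, 47 to 47, 22 to 28, 44 to 45 and 33 to 38 pathway genes and 3 to 5, 9 to 9, 9 to 9, 5 to 5, 7 to 9 and 5 to 7 of the 9 genes for Metformin, FK506 and the combination against Control, the combination against FK506 and against Metformin, and the interaction. Requiring a log2 change of at least 1 as well, chosen after seeing the data, left 12, 30, 29, 2, 22 and 13 pathway genes, and of the 9 genes 2 for Metformin against Control, 0 for the combination against FK506 and 3 for the interaction. Replicate numbers did not pair the samples (correlations of deviations from -0.0713 to 0.05), and the fit with the replicate number as a block gave 37, 48, 47, 26, 44 and 35 pathway genes and 4, 9, 9, 5, 9 and 5 of the 9. Without a scaling factor the median of all genes between FK506 and Control moved from 0.024 to 0.25, and against T cell markers to 0.38, so calls split into 7754 higher and 4728 lower, or 8544 and 4047, in place of 6283 and 6014. Against T cell markers the split was also 5236 and 3317 in place of 4352 and 4159 for metformin, 8030 and 4523 in place of 6401 and 6011 for the combination against Control, 1379 and 3994 in place of 2374 and 2286 for the combination against FK506, 7544 and 4473 in place of 6125 and 5755 for the combination against Metformin, and 2165 and 5444 in place of 3415 and 3649 for the interaction. The pathway genes between the combination and FK506 then split into 13 higher and 11 lower in place of 20 and 6. Among the genes named by the rule, signs turned for Arnt with FK506 (0.12 without a scaling factor, 0.25 against T cell markers, 0.097 and 0.10 in limma on FPKM). They also turned for Cyp1a1 with metformin (-0.28 without Control replicate 1 or 2, -0.13 without Metformin replicate 2, at most 0.96 without another sample). For Tiparp they turned between the combination and FK506 (-0.063 against T cell markers, -0.0009 and -0.0013 in limma, -0.0039 without FK506 replicate 1, -0.075 without combination replicate 3). The cause was not tested. A filter at a mean of 1 FPKM removed the 3 cytokines.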
